A study of Mus musculus with 9 samples.

Results

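Whole retina of rd10 mice was compared with whole retina of wild type mice, gene by gene. The libraries were chosen by their titles alone and make up 6 of the 9 libraries of the series, 3 from each genotype. Retinae of the wild type group, labelled normal, were taken at postnatal day 48, and those of the rd10 group, labelled degenerated, at day 61. Age and genotype therefore cannot be told apart. Each library pooled 2 retinae, and the series describes the replicates as biological. The labels name no strain background and no sex. The 3 libraries left over come from retinae labelled GFP-expressing, also normal. They have no age of their own, though day 42 is given for a line written as Gg13. They entered the shared estimate of spread and served as a further normal group.

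Rods are the most numerous cells of the mouse retina. In darkness their cyclic GMP holds channels of the outer segment open; light activates transducin, which turns on a phosphodiesterase that removes cyclic GMP. The rd10 strain carries a missense mutation in Pde6b, the gene for the beta subunit of that enzyme, and its rods die in the weeks after birth, while many cones outlive them for a time. Müller glia span the retina and react to injury, microglia remove dying cells, and bipolar, amacrine and ganglion cells carry the signal onward.

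Library totals ran from 10037144 to 12149448 counts. Levels are given in CPM, a gene's counts relative to the total of its library, after scaling by TMM, the trimmed mean method of edgeR. In whole tissue, fewer cells of a type and less RNA per cell cannot be told apart. Replicate libraries differed by more than counting noise, and TMM factors were 0.894 to 0.994 in wild type and 1.12 to 1.18 in rd10. RNA of the lens, a tissue next to the retina, stood out in wild type 2, wild type 3 and rd10 2. Over 5 crystallin genes these libraries had 3789, 1858 and 5294 CPM without TMM scaling, against at most 3.35 CPM in the other 3 libraries. Transcripts of the Y chromosome had no count in wild type 2 and rd10 1 and were present in the other 4 libraries. Long transcripts were also unevenly represented: with genes cut into 5 equal groups by transcript length, the mean log2 deviation of the longest group minus that of the shortest was 0.15, -0.16 and -0.33 in wild type and 0.16, 0.10 and 0.35 in rd10. The part of these library differences in the results was not tested beyond the values given with each result.

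Transcripts of photoreceptors fell steeply in rd10, and transcripts of glia, immune cells and inner retinal neurons rose by smaller factors. Pde6b itself (chromosome 5, 108817392 to 108860761, build mm9) had 3086, 3686 and 2681 CPM in the wild type libraries and 6.0, 22.5 and 30.1 CPM in the rd10 libraries. Every rd10 library thus lay far below every wild type library, although rd10 1 held less than the other two. The gene fell 161-fold (log2 change -7.33, SE 0.54, adjusted p = 5.18e-06). Over 14300 genes tested by edgeR's quasi-likelihood test, 2067 were higher (14.5%) and 1988 were lower (13.9%) at an adjusted p under 0.05, together 28.4%. For 50.5% of genes all rd10 values lay on the same side of all wild type values. Scaled by library totals instead, the calls were 3603 higher and 1079 lower, as the median log2 difference of all genes moved from -0.03 to 0.25. Changes below are therefore relative to the TMM scale. No gene called here was called in the opposite direction in any of the 18 alternative settings.

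The fall reached further than the rise. At least 4-fold changes were found in 109 genes that rose and 381 that fell, at least 16-fold changes in 9 and 85, and at least 32-fold changes in 2 and 49. The split differed with abundance: of 61 genes with a mean of 1000 CPM or more, 35 fell and 4 rose, while of 3499 genes between 1 and 10 CPM, 263 fell and 439 rose. Genes called lower held 32.5% to 35.5% of counts in the wild type libraries and 11.8% to 12% in the rd10 libraries. For genes called higher these shares were 8.56% to 9.28% and 19.4% to 20.4%. The 381 genes that fell at least 4-fold held 16% to 18.8% of wild type counts and 1.11% to 1.35% of rd10 counts. These groups were picked by the same contrast, so the shares are descriptions. Without rd10 1, rd10 2 or rd10 3 the calls were 1269, 1369 and 1269 higher and 1186, 1234 and 1271 lower, and without wild type 3 the higher calls were 1279. Without the 4 libraries with lens RNA (1 of them from the GFP group), which leaves a single wild type library, 86 genes were higher and 457 lower, and 125 of 212 genes chosen for naming lost their call.

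**Figure D1:**
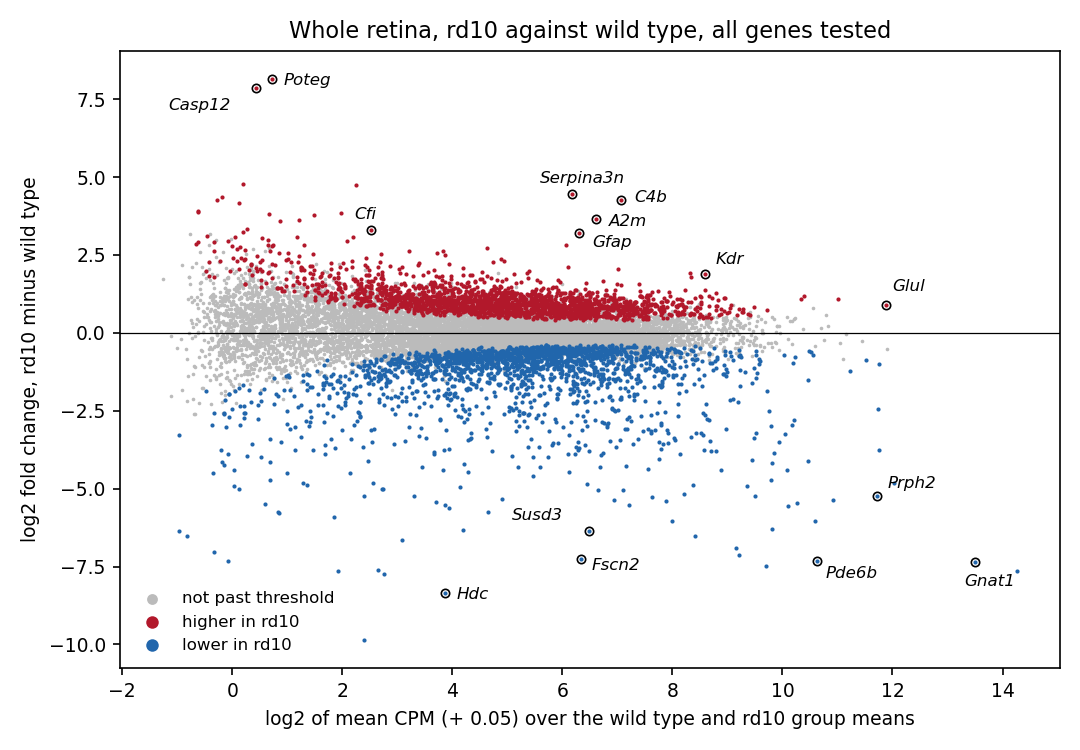
Difference between rd10 and wild type (log2 fold change, vertical axis) against the mean level of each of 14300 genes (log2 CPM, horizontal axis), coloured by call. The points reach much further down than up, and the most abundant genes are mostly below 0; Poteg and Casp12 had no count in wild type, so their height depends on the prior count of the model.

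**Figure D2:**
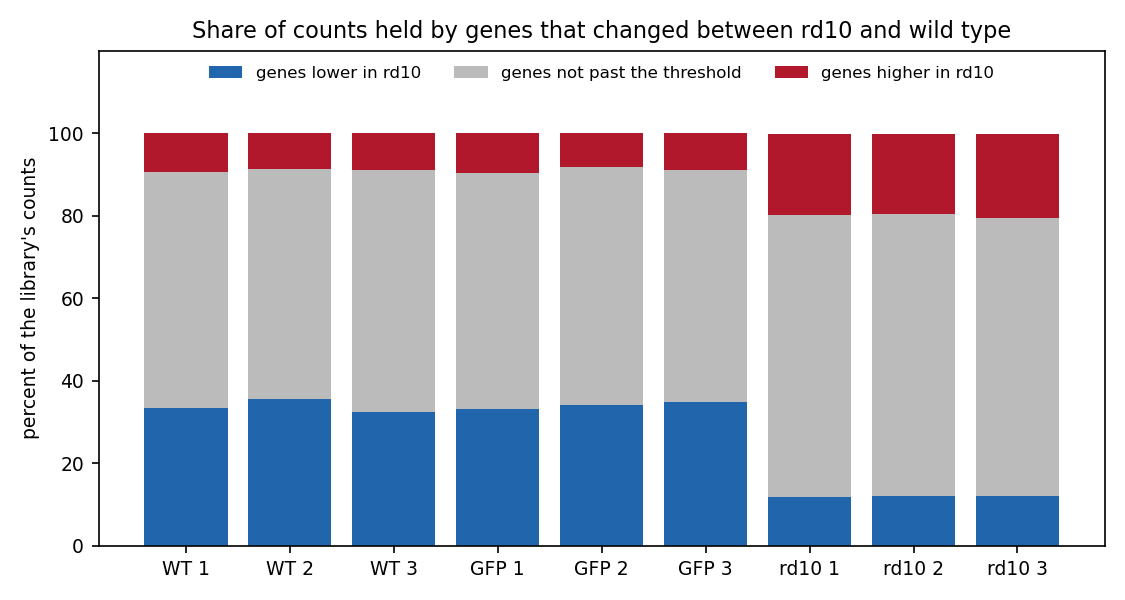
Percent of each library's counts held by the 1988 genes lower in rd10, the 2067 genes higher in rd10 and the remaining genes (vertical axis), in the 9 libraries (horizontal axis). The genes that fell held 32.5% to 35.5% of wild type counts and 11.8% to 12% of rd10 counts, and 33.1% to 34.9% of GFP counts.

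All 20 tested genes of the rod phototransduction cascade fell, with a median log2 change of -5.14 against -0.03 over all genes, and all 20 also fell without the libraries with lens RNA. The list was drawn up with earlier results of these data known, as were all lists below. Gnat1, the alpha subunit of rod transducin (chromosome 9, 107576805 to 107581923), had 19354, 29185 and 20869 CPM in the wild type libraries and 40.1, 156 and 224 CPM in the rd10 libraries. It fell 165-fold (log2 change -7.37, SE 0.59, adjusted p = 9.62e-06). Gnb1, the beta subunit with which it pairs, had 6427, 7416 and 5388 CPM in the wild type libraries and 465, 467 and 502 CPM in the rd10 libraries, a 13.4-fold fall. The gamma subunit of the phosphodiesterase, Pde6g, fell 41.1-fold from 3789.7 ± 1073 to 92.2 ± 14 CPM (SD, n = 3 each). The channel that cyclic GMP opens has a subunit encoded by Cnga1, which fell 141-fold, and another encoded by Cngb1, which fell 21.1-fold. Slc24a1, the exchanger that clears calcium from the outer segment, fell 78.8-fold.

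Genes that end the photoresponse or restore the dark state fell too. Sag, the rod arrestin, had 7769, 7212 and 9337 CPM in the wild type libraries and 225, 287 and 356 CPM in the rd10 libraries, a 28-fold fall (log2 change -4.81, SE 0.26, adjusted p = 7.28e-07). Pdc, phosducin, which binds transducin subunits, fell 47.1-fold, and Guca1b, an activator of guanylate cyclase in low calcium, fell 119-fold (log2 change -6.89, SE 0.27, adjusted p = 2.49e-07). The smallest log2 changes of the list, singled out after their values were seen, were -2.96 for Rgs9, which speeds the shutoff of transducin, and -3.23 for Gucy2e, a guanylate cyclase of rods and cones.

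The rd10 libraries did not carry the residue of rod RNA evenly. For Gnat1, Pde6b and the rod transcription factor genes Nrl and Nr2e3, the highest rd10 library held 5.58, 5.01, 4.78 and 4.45 times as much as the lowest, which was rd10 1 each time. Nrl, for example, had 2.61, 12.5 and 12.2 CPM. The same ratio was 1.08 for Gnb1, 1.10 for Prph2 and 1.03 for Guca1a. Of the 85 genes that fell at least 16-fold, 67 were lowest in rd10 1 (78.8%), and of all genes tested 28.6%. Of the 109 genes that rose at least 4-fold, 63 were also lowest in rd10 1. These counts were made after the values were seen and have no test.

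Of 21 tested genes of the outer segment disc and of photoreceptor adhesion 16 fell and the other 5 did not pass, with a median of -3.26. Prph2, the peripherin that curves the disc rim (chromosome 17, 47047434 to 47061875), had 6257, 7659 and 5695 CPM in the wild type libraries and 165, 182 and 174 CPM in the rd10 libraries. It fell 37.6-fold (log2 change -5.23, SE 0.19, adjusted p = 1.99e-07), with a spread among the rd10 libraries of 8.31 CPM (SD, n = 3). Its partner Rom1 fell 17.4-fold from 2683 ± 387 to 154 ± 6.83 CPM. Fam161a, a protein of the connecting cilium, fell 8.59-fold, and Rbp3, which carries retinoids between photoreceptors and pigment epithelium, fell 5.44-fold from 5747 ± 1080.4 to 1057 ± 171 CPM. The actin bundling gene Fscn2 had 161, 156 and 164 CPM in the wild type libraries and 1.26, 0.965 and 0.885 CPM in the rd10 libraries, a fall of 153-fold.

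The outer segment is a modified cilium, and 30 of 43 tested genes of cilia and of intraflagellar transport fell while the other 13 did not pass, with a median of -1.17. The BBSome is a coat that moves membrane proteins in cilia. Its subunit gene Bbs9 (chromosome 9, 22280159 to 22692724) had 148, 153 and 144 CPM in the wild type libraries and 21.2, 19.8 and 21.8 CPM in the rd10 libraries. The groups were well separated, and the gene fell 7.07-fold (log2 change -2.82, SE 0.14, adjusted p = 4.61e-07). Bbs7 fell 7.15-fold and Arl13b, a small GTPase of the ciliary membrane that overlaps Stx19 on the other strand, 6.29-fold. Kif3b, a motor subunit of transport toward the ciliary tip, fell 2.25-fold. The fall was not uniform. Ift20, Ift27 and Ift46, subunits of the transport particle singled out after their values were seen, had log2 differences of 0.00, -0.15 and -0.04 and did not pass. Without the libraries with lens RNA, 14 of the cilium genes and 14 of the disc and adhesion genes were lower.

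Of 16 tested transcription factor genes of photoreceptors, 11 fell and 1 rose, with a median of -1.57. Nrl, which directs cells to the rod fate, had 1602, 1871 and 1472 CPM in wild type and fell 181-fold, and its target Nr2e3, a repressor of cone genes in rods, fell 92.2-fold from 670.4 ± 88.6 to 7.25 ± 4.31 CPM. Crx, the homeobox activator that rods and cones share (chromosome 7, 16451296 to 16465304), had 1471, 1578 and 1360.3 CPM in the wild type libraries and 229, 271 and 272 CPM in the rd10 libraries. Its 5.71-fold fall (log2 change -2.51, SE 0.16, adjusted p = 1.73e-06) was far smaller than that of Nrl. Mef2c fell 12.8-fold, and Samd7, a silencer of genes unsuited to rods, fell 19.7-fold with 5.61, 11.2 and 13.1 CPM left in the rd10 libraries. The single factor that rose was Sall3, which acts in cones and some interneurons, with a log2 change of 0.79. Its call was lost with the trend of transcript length removed, and the rises were 0 without rd10 1, rd10 2, rd10 3, wild type 2 or wild type 3. 8 factors were lower when the libraries with lens RNA were left out.

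Outer segments are rich in very long polyunsaturated fatty acids, and enzymes of their synthesis split. Of 18 tested genes, 6 fell (33.3%) and 4 rose (22.2%), against 13.9% and 14.5% of all genes. Elovl4, which makes the longest chains (chromosome 9, 83672299 to 83699912), had 739.8, 714 and 668 CPM in the wild type libraries and 103, 104 and 97.3 CPM in the rd10 libraries, a 6.97-fold fall (log2 change -2.80, SE 0.17, adjusted p = 1.51e-06). Agpat3, which loads docosahexaenoic acid onto phospholipids, fell 9.36-fold, and Adipor1, a receptor needed for uptake of that acid, fell 6.84-fold from 694 ± 65.8 to 101 ± 6.31 CPM. The 4 genes that rose, named after their values were seen, were Elovl5, Fads1, Scd1 and Scd2, by log2 changes of 0.72, 0.56, 1.04 and 0.77, and they desaturate or lengthen shorter chains. In the list of creatine and nucleotide energy genes 3 of 17 fell (17.6%) and 2 rose (11.8%), near the shares of all genes. Impdh1, the first enzyme of guanine nucleotide synthesis, had 921, 1178 and 802 CPM in the wild type libraries and 196, 199 and 230.0 CPM in the rd10 libraries, a 4.64-fold fall, and Ckmt1, a mitochondrial creatine kinase that overlaps Strc on the other strand, fell 2.23-fold. The list medians were -0.07 and -0.23, and both turned positive with library totals (0.22 and 0.06). Rises in the energy list were 1 without rd10 1, rd10 2, rd10 3 or wild type 2, and with the libraries with lens RNA left out 3 falls of the lipid list and 1 of the energy list passed, and no rise of either (0 and 0).

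**Figure D3:**
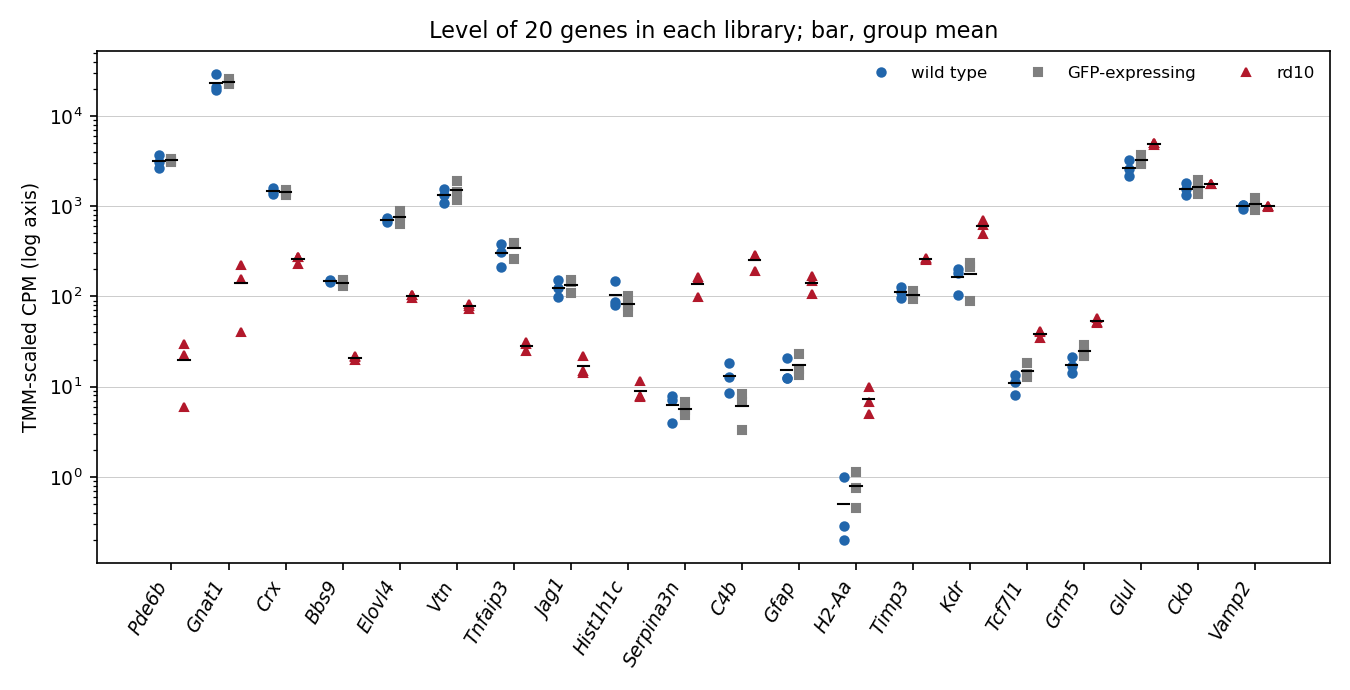
TMM-scaled CPM (log axis) of 20 genes in each of the 9 libraries, with a bar at each group mean. From Pde6b to Hist1h1c the rd10 libraries lie below wild type and GFP, from Serpina3n to Glul they lie above, and for Ckb and Vamp2 they overlap.

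Cone genes went both ways. Of 14 tested, 2 rose, 3 fell and 9 did not pass, with changes from -4.88 to 0.97 and a median of -0.01. The shares higher and lower were 14.3% and 21.4%, against 14.5% and 13.9% of all genes. With library totals 6 rose and 3 fell, and the median was 0.28. Their summed level was 2744, 2713 and 2953 CPM in wild type and 2053, 2079.9 and 2059 CPM in rd10, which do not overlap. Much of that gap lay in Kcnv2, a gene of rods as well as cones. It made up 762, 679 and 494 CPM of the wild type sums and 17.8, 19.1 and 28.6 CPM of the rd10 sums. As shares of all counts, without TMM scaling, the ranges were 0.243% to 0.294% and 0.230% to 0.245% and overlapped. Opn1sw, the short-wavelength opsin, had 457, 467 and 541 CPM in the wild type libraries and 224, 227 and 211 CPM in the rd10 libraries, a 2.21-fold fall (log2 change -1.15, SE 0.15, adjusted p = 0.000392). It overlaps Calu on the other strand. Kcnv2, a potassium channel subunit of rods and cones, fell 29.5-fold, and Thrb, a thyroid hormone receptor of cones, 2.05-fold. The genes that rose, named after their values were seen, were the cone phosphodiesterase gene Pde6c and the exchanger gene Slc24a2, by log2 changes of 0.92 and 0.97. Without wild type 2, 1 of these calls stood, and without the libraries with lens RNA none (0).

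Marker genes of inner retinal neurons were higher as shares of RNA. Among bipolar, amacrine and ganglion cell genes, 12 of 20, 15 of 19 and 6 of 16 rose, with medians of 0.91, 0.71 and 0.55. The single gene of these lists that fell was Jam2, a junctional adhesion molecule also found in vessels, with a log2 change of -0.53 (the falls were 0 without rd10 1, rd10 2, rd10 3, wild type 1 or wild type 2). Grik1, a kainate receptor subunit of OFF bipolar cells, had 116, 118 and 90.3 CPM in the wild type libraries and 209.6, 201 and 232 CPM in the rd10 libraries, a 1.98-fold rise (log2 change 0.99, SE 0.17, adjusted p = 0.00198). Ebf3, a transcription factor of amacrine cells, rose 2.15-fold from 49.4 ± 9.32 to 106 ± 7.68 CPM. Ebf1 rose 2.42-fold in the ganglion cell list. The shares of counts held by these lists were 0.222% to 0.252%, 0.231% to 0.270% and 0.139% to 0.162% in wild type and 0.495% to 0.550%, 0.473% to 0.483% and 0.228% to 0.241% in rd10. Leaving out the libraries with lens RNA, none of these genes passed (0, 0 and 0), at medians of 0.91, 0.65 and 0.61.

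Many receptor and channel genes of neurons rose. Of 49 tested subunits of GABA, glycine and glutamate receptors 27 rose and 2 fell (median 0.93), against 14.5% and 13.9% of all genes. Grm5, a metabotropic glutamate receptor, had 21.5, 17 and 14.3 CPM in the wild type libraries and 58, 50.5 and 52.5 CPM in the rd10 libraries. It rose 3.04-fold (log2 change 1.61, SE 0.19, adjusted p = 0.000235), with no overlap between the groups. Gria1, a subunit of AMPA receptors, rose 1.99-fold from 49.7 ± 5.26 to 99 ± 4.33 CPM. Of 69 potassium channel subunits 29 rose and 4 fell. Kcnab1, an accessory subunit, rose 1.82-fold. Kcnj14, an inward rectifier, had 542, 591 and 369 CPM in the wild type libraries and 4.58, 9.01 and 9.22 CPM in the rd10 libraries, a 65.7-fold fall (log2 change -6.04, SE 0.32, adjusted p = 6.77e-07). Sodium and calcium channel subunits also divided, with 16 of 35 higher and 5 lower. Cacna1f, the calcium channel of photoreceptor terminals, fell 2.57-fold from 551 ± 76.5 to 215 ± 32.8 CPM, and Scn4a, a sodium channel known from muscle, fell 5.19-fold, while Scn3b, an accessory subunit, rose 2.30-fold.

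Fewer of these rises passed with a library left out: 17 without rd10 3 for the receptors, 17 to 19 without rd10 1, rd10 3 or wild type 3 for the potassium channels and 9 to 10 without rd10 1, rd10 3, wild type 2 or wild type 3 for the sodium and calcium channels, whose falls were 3 without rd10 1, rd10 2 or wild type 2. The receptor genes that fell, Grina and Grm8, were named after their values were seen, and these falls were 1 without rd10 1, rd10 2, rd10 3, wild type 1 or wild type 2. Among libraries free of lens RNA no rise of the 3 families passed (0), at medians of 0.80, 0.68 and 0.59.

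Guidance and recognition molecules, which shape wiring during development and remain in adult neurons, were also mostly higher. 12 of 23 genes of netrin, slit and related pathways rose (median 1.08), as did 16 of 30 semaphorin, plexin and neuropilin genes (0.80), 12 of 22 ephrin genes (0.94) and 16 of 54 clustered protocadherin genes (0.85). Unc5c, a netrin receptor, had 33.9, 23.3 and 25 CPM in the wild type libraries and 65.2, 54.9 and 71.4 CPM in the rd10 libraries, a 2.33-fold rise (log2 change 1.22, SE 0.24, adjusted p = 0.00429). Dcc, the other main netrin receptor, rose 2.12-fold, Sema3e 2.22-fold and Efnb2 2.11-fold. A single gene fell in each of the first and the second of these lists: Dscaml1, an adhesion molecule of rods and some inner neurons, fell 2.32-fold from 291 ± 57.6 to 126 ± 21.7 CPM, and Sema3f, a repellent ligand, 2.36-fold from 197 ± 19.1 to 83.3 ± 12.8 CPM. Pcdhb7 rose 2.73-fold, though protocadherin genes overlap the locus listed as Pcdha4-g on the same strand, and reads may have been split between them. Over all tested genes, the median span in the genome was 46.4 kb for genes called higher, 18.1 kb for genes called lower and 21.4 kb for the rest. With the trend of transcript length removed, 10, 14, 10 and 10 genes of the 4 lists were higher. In that order the counts were 6 to 7 without rd10 1, rd10 3, wild type 2 or wild type 3, 9 without rd10 3 or wild type 2, 6 without rd10 3 or wild type 3 and 7 to 10 without rd10 1, rd10 3, wild type 2 or wild type 3, and 0 in each without the libraries with lens RNA, at medians of 0.88, 0.69, 0.83 and 0.65.

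Genes of vesicle release at conventional synapses moved less, with 7 of 24 higher, 2 lower and a median of 0.30. Rab3c, a small GTPase of synaptic vesicles, had 129, 98 and 90.2 CPM in the wild type libraries and 205, 176 and 179 CPM in the rd10 libraries, a 1.76-fold rise (log2 change 0.82, SE 0.16, adjusted p = 0.00482). Syn2, a synapsin that overlaps Timp4, rose 1.54-fold with little spread, from 47.5 ± 0.333 to 73.2 ± 1.21 CPM. Vamp2, a core protein of vesicle fusion, was among the abundant genes that did not differ beyond their spread, with 936, 1032 and 1032 CPM in wild type and 969.5, 996 and 1017 CPM in rd10. Among the genes that fell was Sv2b, a vesicle protein named after its value was seen (log2 change -0.85), and at least 1 of the falls was lost without rd10 1, rd10 2, wild type 1 or wild type 2 (0 to 1 left).

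Glial genes rose without exception among those that passed. In the Müller glia list 14 of 19 rose (median 0.97) and in the list of reactive glia 17 of 22 (median 1.85). Glul, the glutamine synthetase of Müller glia (chromosome 1, 155747075 to 155756844), had 2593, 3231 and 2137 CPM in the wild type libraries and 5059, 4734 and 4978 CPM in the rd10 libraries. It was the most abundant transcript of every rd10 library and rose 1.86-fold (log2 change 0.89, SE 0.18, adjusted p = 0.00549). Clu and Apoe, secreted lipid carriers, and Dkk3, a secreted relative of Wnt inhibitors, were also among the genes that gained most counts, going from 1314 ± 353 to 2792 ± 382 CPM, 823 ± 251 to 1859.6 ± 156 CPM and 834 ± 90.3 to 1763 ± 72.9 CPM. Serpina3n, a secreted protease inhibitor of reactive glia (chromosome 12, 105644918 to 105652539), had 3.94, 7.98 and 7.12 CPM in the wild type libraries and 98, 155 and 164 CPM in the rd10 libraries. The groups were widely separated, and the rise was 21.8-fold (log2 change 4.45, SE 0.30, adjusted p = 2.98e-06). The broad protease inhibitor A2m rose 12.5-fold from 14.4 ± 4.53 to 179.9 ± 54.1 CPM. Gfap, the filament protein of reactive glia, had 12.4, 20.9 and 12.6 CPM in the wild type libraries and 107, 148 and 170.3 CPM in the rd10 libraries, a 9.25-fold rise. In each of these 3 genes rd10 1 was the lowest rd10 library.

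Of 8 tested astrocyte genes 4 rose (median 0.71), of which Aldh1l1 and S100b, by 2.17-fold and 2.08-fold, are also found in Müller glia. Of 9 oligodendrocyte and myelin genes none passed (0 by edgeR's quasi-likelihood test, 2 at an unadjusted p under 0.05, 2 by DESeq2, 1 by limma-voom and by upper-quartile scaling, and 5 with library totals). Mbp, a main protein of myelin, had 31, 25.4 and 31.9 CPM in the wild type libraries and 32.5, 37.2 and 37.5 CPM in the rd10 libraries, and its call was gained with library totals (adjusted p = 0.0343, of a range over alternatives up to 0.813). Summed over the list, myelin RNA was 85.8, 90.01 and 87.6 CPM in wild type and 113, 119 and 118 CPM in rd10, with no overlap. Leaving out the libraries with lens RNA, the higher genes were 2 of the Müller glia list, 9 of the reactive list and 0 of the astrocyte list, while the medians were 1.03, 2.00 and 1.19. The reactive list gave 11 without rd10 2 or rd10 3 and the astrocyte list 2 without rd10 1, rd10 2, rd10 3 or wild type 3, or 2 with the length trend removed.

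Many transcripts of microglia and other phagocytes rose. Whether they came from resident or incoming cells was not tested. Among microglia genes 14 of 20 rose (median 1.54), among genes that mark phagocytes in diseased nervous tissue 8 of 18 (0.84), and among Fc receptor and C-type lectin genes 6 of 13 (1.13). Csf1r, the growth factor receptor on which microglia depend, had 16.6, 23.3 and 13.3 CPM in the wild type libraries and 45, 46.9 and 55.1 CPM in the rd10 libraries, a 2.76-fold rise (log2 change 1.47, SE 0.22, adjusted p = 0.00112). Csf1, which encodes a ligand of that receptor, rose 3.06-fold from 6.20 ± 1.60 to 19 ± 2.63 CPM. Axl, a receptor for the uptake of dying cells, rose 2.42-fold. Clec7a, a lectin receptor of activated microglia, had 0.202, 0.385 and 0.401 CPM in the wild type libraries and 3.32, 5.31 and 3.91 CPM in the rd10 libraries, a 12.3-fold rise from levels of only a few counts. Cx3cr1, the fractalkine receptor of microglia, rose 3.18-fold, and its ligand Cx3cl1, made by neurons, 1.60-fold. The chemokine family had 4 of 17 tested genes higher in all.

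Of 17 tested genes of antigen presentation 9 rose, and of 31 guanylate-binding and interferon-induced genes 16, and the others did not pass. H2-Aa, a chain of class II molecules, had 0.202, 0.288 and 1.0 CPM in the wild type libraries and 4.97, 9.97 and 6.78 CPM in the rd10 libraries, a 14.3-fold rise (log2 change 3.84, SE 0.58, adjusted p = 0.00107). Its chaperone Cd74 had 1.72, 6.35 and 3.91 CPM in the wild type libraries and 18.3, 31.4 and 23.8 CPM in the rd10 libraries. Gbp2, a guanylate-binding protein induced by interferon, rose 3.90-fold, and Ifih1, a sensor of viral RNA, 2.86-fold. C4b of the complement cascade had 8.48, 18.4 and 12.7 CPM in the wild type libraries and 194, 283 and 285 CPM in the rd10 libraries, a 19.2-fold rise (log2 change 4.26, SE 0.36, adjusted p = 1.36e-05), and reads could be shared with its near-identical copy C4a. Further single genes of complement, C3, Cfi and Serping1, rose 6.55-fold, 9.81-fold and 7.05-fold.

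Genes of innate sensing went both ways. 7 of 18 tested genes of Toll-like receptors and inflammasomes rose, among them Tlr3 by 2.15-fold, while Tnfaip3, a brake on NF-kB signalling (chromosome 10, 18720717 to 18735216), fell. It had 311, 385 and 214 CPM in the wild type libraries and 29.5, 25.1 and 31.3 CPM in the rd10 libraries. The GFP libraries were as high as wild type, at 396, 258 and 383 CPM, and the fall was 10.6-fold (log2 change -3.41, SE 0.26, adjusted p = 6.43e-06). Lymphocyte and granulocyte genes were close to the floor. Of 20 lymphocyte genes 2 could be tested and none passed (0 by edgeR, 0 at an unadjusted p under 0.05 and 0 by DESeq2 and by limma-voom), with 0.606, 1.35 and 0.902 CPM of Lck in wild type and 1.50, 1.61 and 1.25 CPM in rd10, and none of 14 granulocyte and mast cell genes (0) reached the minimum for testing. The higher counts were 9 without rd10 2 or wild type 3 for microglia, 1 to 3 without rd10 2, wild type 2 or wild type 3 for Fc receptors, 4 without rd10 2 or wild type 3 for innate sensing and 7 to 10 without rd10 1, rd10 3 or wild type 2 for the interferon list. Among libraries free of lens RNA they were 0, 0, 0 and 5, and 3 for antigen presentation, 1 for the phagocyte list and 0 for chemokines. In the same order the medians were 1.80, 1.39, 1.06, 1.65, 1.55, 0.98 and 0.94, against 1.54, 1.13, 0.73, 1.11, 1.07, 0.84 and 0.46 with all libraries. Wild type 1 is the only wild type library in that set. Its summed level was the lowest of the wild type libraries for microglia (112 against 133 and 129 CPM), and for the interferon, antigen presentation, phagocyte and chemokine lists. For Fc receptors and innate sensing wild type 3 was the lowest. The part of this in the medians was not tested.

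Vessel cell markers as lists hardly moved, but single genes did. Of 21 tested endothelial genes 1 rose and 1 fell (median 0.01), and of 14 mural cell genes 0 rose and 1 fell (median -0.02). Kdr, the main receptor for vascular endothelial growth factor (chromosome 5, 76329299 to 76374453), had 201, 184 and 105 CPM in the wild type libraries and 615, 495 and 711 CPM in the rd10 libraries, a 3.71-fold rise (log2 change 1.89, SE 0.35, adjusted p = 0.00353). Defining endothelial genes such as Pecam1, Cdh5 and Cldn5, named after their values were seen, had log2 differences of -0.38, -0.17 and 0.01 and did not pass. Ly6c1, a surface antigen of endothelium, fell 2.14-fold. Vtn, which encodes the adhesive protein vitronectin and is used as a pericyte marker in brain (chromosome 11, 78312622 to 78315827), had 1091, 1553 and 1324 CPM in the wild type libraries and 71.9, 78.7 and 81.8 CPM in the rd10 libraries. Its 17.1-fold fall (log2 change -4.09, SE 0.23, adjusted p = 1.05e-06) stood alone in its list, where Pdgfrb and Rgs5, also named after their values were seen, had differences of 0.74 and 0.52 that did not pass. Photoreceptors also make vitronectin. With the libraries with lens RNA left out the call of Vtn stood. Those of Kdr (adjusted p = 0.135, from 8.89e-07 over all alternatives) and Ly6c1 (adjusted p = 0.292, from 0.000756) did not. The rises were 2 without wild type 3 in the endothelial list and 1 without wild type 2 in the mural list.

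Matrix genes rose. Of 30 tested genes of matrix remodelling 16 were higher and the others did not pass, with a median of 1.02. Timp3, an inhibitor of matrix proteases, had 96.4, 128 and 112 CPM in the wild type libraries and 251, 263 and 269 CPM in the rd10 libraries, a 2.33-fold rise (log2 change 1.22, SE 0.16, adjusted p = 0.000331), and it lies within Syn3 on the other strand. Timp2 rose 2.10-fold and Mmp14, a membrane-bound matrix protease, 2.39-fold from 15 ± 2.17 to 35.9 ± 5.31 CPM. Laminin and integrin genes rose in 10 of 31 cases, Lamb2 by 2.39-fold. Collagens divided: 11 of 38 rose and 3 fell. Col24a1 had 5.25, 2.69 and 3.41 CPM in the wild type libraries and 19.3, 24.6 and 23.7 CPM in the rd10 libraries, a 5.96-fold rise, and Col17a1 rose 4.50-fold, while Col19a1, a minor collagen of neurons, fell 11.2-fold from 16.1 ± 5.22 to 1.43 ± 0.546 CPM. The other genes that fell, Col4a3 and Col22a1, were named after their values were seen. The higher counts were 10 without rd10 3 for remodelling and 4 to 6 without rd10 2, rd10 3, wild type 1, wild type 2 or wild type 3 for laminins and integrins, with 1 without wild type 2 for the collagens that fell. Leaving out the libraries with lens RNA they were 5 for remodelling, 0 for laminins and integrins and 2 for collagens, at medians of 1.15, 0.82 and 0.45 against 1.02, 0.73 and 0.69.

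Signalling lists differed in how many genes rose, against 14.5% of all genes. 10 of 32 tested Wnt genes rose and the others did not pass, 11 of 28 of the TGF-beta and BMP list rose and 1 fell (0 without rd10 1, rd10 2, rd10 3 or wild type 1), 6 of 17 fibroblast growth factor genes rose, and in the Notch list 5 of 23 rose and 1 fell. Tcf7l1, a transcription factor at the end of the Wnt pathway, had 11.4, 13.6 and 8.02 CPM in the wild type libraries and 40.04, 34.8 and 41.2 CPM in the rd10 libraries, a 3.52-fold rise (log2 change 1.81, SE 0.23, adjusted p = 0.000318). Tgfb2, a ligand of the TGF-beta family, rose 2.17-fold from 86.1 ± 5.68 to 187 ± 10.5 CPM. Fgfr1 rose 2.20-fold. Among Notch genes the receptor gene Notch2 rose 2.55-fold, whereas Jag1, which encodes a ligand of Notch receptors (chromosome 2, 136907187 to 136942256), had 152, 124 and 99.5 CPM in the wild type libraries and 14.8, 14.3 and 22.1 CPM in the rd10 libraries. Jag1 fell 7.31-fold (log2 change -2.87, SE 0.24, adjusted p = 1.27e-05). In the Hippo list Yap1, the pathway's main coactivator, rose 1.86-fold and Tead3, a DNA-binding partner, fell 2.78-fold. That list had 2 of 19 genes higher and 1 lower, shares under those of all genes, or 7 and 1 with library totals. The counts of higher genes were 6 without rd10 1 for Wnt, 6 to 7 without rd10 2 or wild type 1 for TGF-beta and BMP, 3 without rd10 1, wild type 2 or wild type 3 for fibroblast growth factors, 2 to 3 without rd10 1, rd10 2, rd10 3, wild type 1 or wild type 3 for Notch and 1 without rd10 3 or wild type 3 for Hippo. In the set free of lens RNA they were 1, 0, 0, 0 and 0, at medians of 0.99, 0.77, 0.77, 0.34 and 0.18.

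Genes of the nucleus and of mitosis included large falls, although the adult retina holds few dividing cells. Of 21 tested cell cycle genes 6 fell and 3 rose, and of 25 DNA damage genes 8 fell and 1 rose. Of 34 chromatin modifiers 8 fell and 4 rose, and of 12 replication-dependent histone genes 5 fell and the others did not pass. In that order the falls were 28.6%, 32%, 23.5% and 41.7%, against 13.9% of all genes. The rises of the cell cycle, DNA damage and chromatin lists were 14.3%, 4% and 11.8%, not above the 14.5% of all genes. Hist1h1c, a linker histone (chromosome 13, 23830676 to 23832236), had 80.03, 87.3 and 147 CPM in the wild type libraries and 7.98, 11.4 and 7.74 CPM in the rd10 libraries, an 11.6-fold fall (log2 change -3.53, SE 0.29, adjusted p = 1e-05). Hmgb2, a chromatin protein, had 78.7, 96.2 and 137 CPM in the wild type libraries and 9.08, 10.1 and 6.78 CPM in the rd10 libraries, a fall of 12-fold. Lmnb1, which encodes lamin B1 of the nuclear lamina, fell 3.13-fold. Ccna2, cyclin A2, which overlaps Exosc9 on the other strand, fell 10.2-fold from 45 ± 16.6 to 4.39 ± 1.85 CPM. Brca1, of DNA repair, had 11.4, 8.17 and 12.3 CPM in the wild type libraries and 1.18, 0.885 and 0.737 CPM in the rd10 libraries, an 11.3-fold fall, and the mitotic kinesin genes Kif20b and Kif18a fell 13.5-fold and 5.90-fold. Not all growth genes went this way: the cyclin gene Ccnd2, named after its value was seen, had a log2 change of 1.51.

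These counts were less firm than the falls of the single genes named above. The median of the chromatin list was -0.28 and 0.00 with library totals, and the medians of the cell cycle and DNA damage lists went from -0.45 and -0.32 to -0.18 and -0.04. The falls were 3 to 5 without rd10 1, rd10 2, rd10 3, wild type 1 or wild type 2 for DNA damage, or 2 with library totals, and 5 without rd10 1 or rd10 3 for chromatin. The rises were 1 without rd10 1, rd10 3 or wild type 3 for the cell cycle and 1 to 2 without rd10 1, rd10 3, wild type 2 or wild type 3 for chromatin. Without the libraries with lens RNA 2 cell cycle, 1 DNA damage, 3 chromatin and 1 histone genes were lower. Hist1h1c, Hmgb2, Lmnb1, Ccna2, Brca1, Kif20b and Kif18a were still called without those libraries. Others that the naming rule chose from these lists lost their call, among them Plk1, Gadd45a, Atr, Kdm5b, Hist1h2ac and Hist1h1e.

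Most stress and housekeeping genes did not pass, and the calls among the others went both ways. Of 23 tested genes of the unfolded protein response 6 fell and 1 rose, but 3 fell and 5 rose with library totals. Atf4, a transcription factor of that response, had 318, 369.5 and 392 CPM in the wild type libraries and 161, 156 and 181 CPM in the rd10 libraries, a 2.17-fold fall (log2 change -1.12, SE 0.18, adjusted p = 0.00146), and its target Trib3 fell 3.29-fold. Among 66 heat shock and DnaJ genes 13 fell and 1 rose, but 7 fell and 10 rose with library totals. The inducible chaperone genes Hspa1a and Hspa1b, near-identical copies whose reads cannot be told apart with certainty, fell 10.6-fold and 13.3-fold, from 36.6 ± 8.53 to 3.45 ± 0.763 CPM and 28.5 ± 8.88 to 2.14 ± 0.348 CPM. Hspa8, their constitutive relative, had 2220.1, 2896 and 1853 CPM in wild type and 2192, 2026 and 2566 CPM in rd10, overlapping ranges. Iron handling had 3 of 20 genes higher (15%, near the 14.5% of all genes, and 7 genes with library totals), of which Trf, transferrin, had 193, 331 and 253 CPM in the wild type libraries and 597, 541 and 748 CPM in the rd10 libraries, a 2.43-fold rise. In the cholesterol list Abcg1, a sterol exporter, fell 1.99-fold (the falls of this list were 1 without rd10 1, rd10 2 or wild type 2), and in the lysosome list 3 rose and 3 fell of 31 (9.68% each, under the shares of all genes). With library totals 9 lysosome genes rose and none fell (0), and with upper-quartile scaling 7 rose and 1 fell.

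The lysosome counts were 1 without rd10 1, rd10 2, rd10 3, wild type 1 or wild type 3 for rises and 0 to 1 without rd10 1, rd10 2, wild type 2 or wild type 3 for falls, the iron count 1 without rd10 1, rd10 2, rd10 3 or wild type 3, and the heat shock falls 8 without rd10 1, rd10 3 or wild type 2. Subunits of the ribosome, mitochondrial ribosome, proteasome and respiratory chain gave 5 of 77, 9 of 73, 6 of 47 and 9 of 88 genes lower. These shares (6.49%, 12.3%, 12.8% and 10.2%) lie under the 13.9% of all genes, and the other subunit genes did not pass. Their medians were nevertheless -0.54, -0.44, -0.37 and -0.44, against -0.03 over all genes, and -0.25, -0.15, -0.07 and -0.16 with library totals. Within groups the list median varied between libraries with an SD of 0.32, 0.24, 0.11 and 0.24. With library totals 3, 1, 0 and 3 were lower and 0, 0, 2 and 1 higher, and by DESeq2 11, 13, 7 and 15 were lower. With the libraries left out in turn these counts ran from 2 to 11, 1 to 16, 0 to 7 and 2 to 15. In every one of these families the highest counts came without wild type 1. Summed ribosomal protein RNA was 1.75%, 2.47% and 2.70% of counts in wild type and 2.04%, 2.14% and 1.57% in rd10, overlapping ranges. Zinc finger genes of the Zfp series had 52 of 340 lower (15.3%) and 23 higher (6.76%), against 13.9% and 14.5% of all genes. These counts became 18 and 36 with library totals, and the falls were 27 to 34 without rd10 1, rd10 2, rd10 3 or wild type 1.

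**Figure D4:**
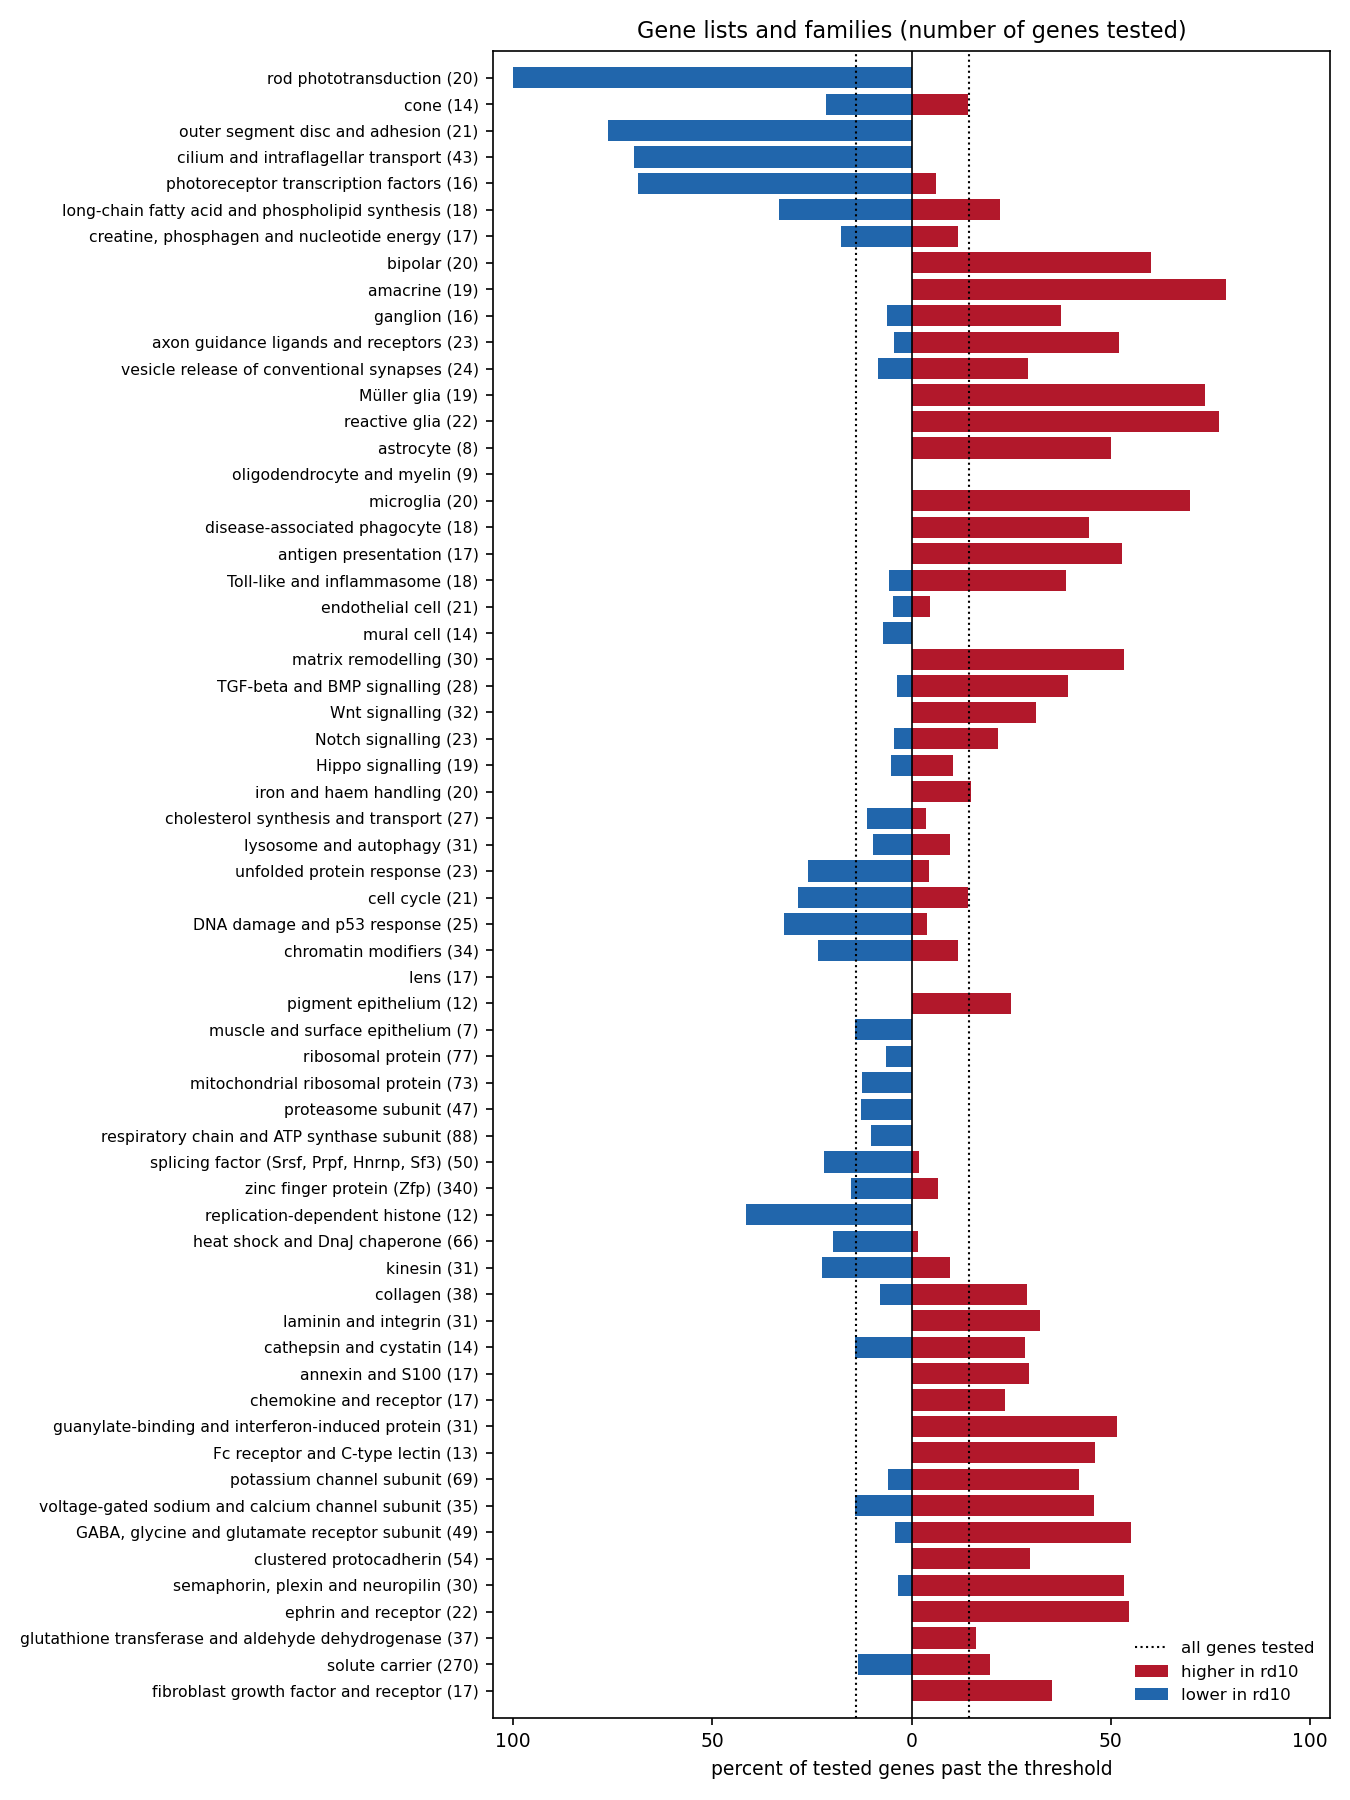
Percent of tested genes that rose (right) or fell (left) in rd10 in each list or family with at least 7 tested genes, with the number tested in brackets (vertical axis). Dotted lines mark the percent of all genes tested, 14.5% higher and 13.9% lower; photoreceptor lists extend to the left and glial, immune and neuronal lists to the right.

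Pigment epithelium, which touches the photoreceptors and can remain on a dissected retina, gave 3 of 12 tested genes higher. Dct, an enzyme of melanin synthesis, had 18, 44.5 and 30.7 CPM in the wild type libraries and 78.3, 59 and 65.2 CPM in the rd10 libraries, a 2.17-fold rise. The other genes that rose were Tyrp1 and Lrat, by 2.08-fold and 1.90-fold, and the rises of the list were 1 without rd10 3. Tyrp1 also lost its call without rd10 1, rd10 2 or wild type 3. Lrat also lost its call with the trend of transcript length removed or without the libraries with lens RNA. The summed share of this list was 0.0218% to 0.0587% of counts in wild type and 0.0609% to 0.0784% in rd10. None of 17 lens genes passed (0 by edgeR, 0 at an unadjusted p under 0.05 and 0 by DESeq2 and by limma-voom).

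Where a genotype had no count of a gene, only a lower bound on the change can be given. In 82 genes every rd10 library had a count and no wild type library did, and in 32 genes the reverse held. Most were near the floor, and 2 and 4 of them were abundant enough to test. The rule for naming genes skips provisional names ending in Rik. Of these, 1700027L20Rik, named after its values were seen, had 44, 47 and 224 wild type counts and none (0) in rd10, at least 45-fold lower (adjusted p = 0.000968), and 4930465K10Rik had 11, 12 and 5. Casp12, an inflammatory caspase, had 29, 47 and 24 counts in rd10 and was at least 8.79-fold higher than a floor of 3 counts in each wild type library (adjusted p = 0.00347). Poteg had 31, 39 and 55 counts and was at least 10.8-fold higher. The normal GFP libraries had no count (0) of Casp12 or Poteg. Gsx2, another of the 82 and named after its values were seen, had 6, 4 and 4 counts there. Wdr63 had 32, 16 and 6 wild type counts and fell at least 7.69-fold against a floor of 3 counts in each rd10 library. Rspo2, an enhancer of Wnt signalling, had 12, 17 and 16 counts and was at least 6.37-fold lower.

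Promoters of the genes that changed most were searched for short motifs, since many of these genes moved together. RefSeq promoters (build GRCm38.p6, not the mm9 build of the counts), each of 250 bases before to 50 after the gene's start, matched 10129 of the 14300 genes tested. The core TAATCC that the homeobox factor CRX binds, on either strand, was present in 5.56% of these promoters, in 37 of 256 promoters of genes at least 4-fold lower (14.5%), in 8.94% at 2-fold or more, and in 6 of 70 of genes at least 4-fold higher (8.57%). The half-site TGCTGA, bound by NRL, was at 15.2% against 15.2% of all. The pattern of interferon-responsive promoters (GAAA, any 2 bases, GAAA) was present in 2.79% of all promoters, in 7 of 70 promoters of genes at least 4-fold higher and in 2.34% of those lower, and that of NF-kB sites (GGG, any 2 bases, TTTCC) in 1.64%, 7.14% and 3.52%. The groups were picked by their change and the counts of matches are small, so these are descriptions, and a match is not shown to be a site in use. The other motifs plotted were the TATA box (TATAAA), the STAT palindrome (TTC, any 3 bases, GAA) and the PU.1 core GAGGAAGT, all on both strands. The TATA box was in 7.17% of all promoters, 12.5% of the lower and 21.4% of the higher genes. A promoter was counted once however many matches it held.

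**Figure D5:**
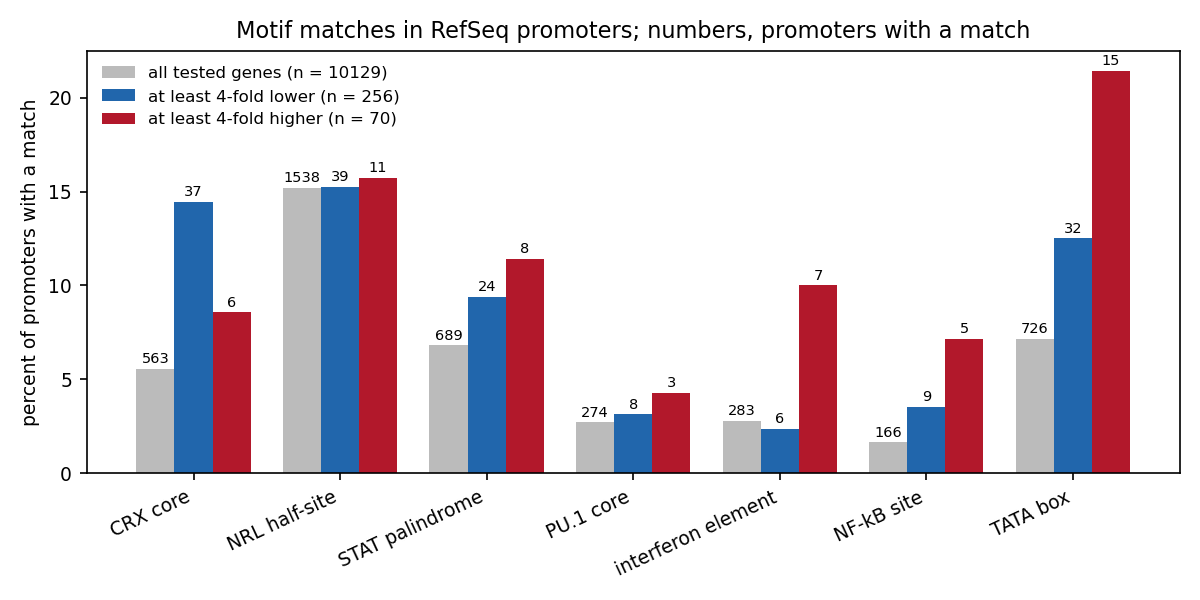
Percent of RefSeq promoters with at least 1 match (vertical axis) to 7 motifs (horizontal axis), for all tested genes, genes at least 4-fold lower and genes at least 4-fold higher in rd10; numbers above bars are promoters with a match. The CRX core stands at 14.5% in the lower genes against 5.56% of all, and the interferon element in 7 of 70 promoters of higher genes against 2.79% of all.

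Examples show how the motifs sit in promoters of genes with large changes, each printed for the 200 bases before the start, 5′ to 3′ on the strand of the gene, with the matches in capitals. They were chosen after their values were seen. The first 4 belong to genes of photoreceptors that fell, by log2 changes of -4.81 (Sag), -4.40 (Gngt1, the gamma subunit of rod transducin), -5.52 (Gucy2f, a guanylate cyclase) and -4.30 (Samd7), and show the CRX core or its reverse complement GGATTA. In GRCm38.p6 they lie at Sag chr1:87803480-87803679, plus strand; Gngt1 chr6:3993808-3994007, plus strand; Gucy2f chrX:142196937-142197136, minus strand; and Samd7 chr3:30746093-30746292, plus strand.
Sag: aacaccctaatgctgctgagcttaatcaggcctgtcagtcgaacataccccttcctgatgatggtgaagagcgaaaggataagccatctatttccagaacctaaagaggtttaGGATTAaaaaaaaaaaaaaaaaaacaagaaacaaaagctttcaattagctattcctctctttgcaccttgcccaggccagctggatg
Gngt1: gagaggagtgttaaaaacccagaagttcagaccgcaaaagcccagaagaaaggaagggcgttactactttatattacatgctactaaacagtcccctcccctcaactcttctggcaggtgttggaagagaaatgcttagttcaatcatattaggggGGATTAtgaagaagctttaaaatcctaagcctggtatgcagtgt
Gucy2f: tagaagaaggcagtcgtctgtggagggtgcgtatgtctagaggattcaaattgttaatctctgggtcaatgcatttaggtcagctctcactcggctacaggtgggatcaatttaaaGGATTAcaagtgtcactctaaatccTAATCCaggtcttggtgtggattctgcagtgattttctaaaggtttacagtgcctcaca
Samd7: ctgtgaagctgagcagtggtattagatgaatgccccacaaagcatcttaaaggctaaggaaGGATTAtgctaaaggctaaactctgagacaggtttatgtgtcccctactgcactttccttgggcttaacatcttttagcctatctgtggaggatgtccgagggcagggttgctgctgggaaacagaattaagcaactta

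The other two belong to genes that rose, Serpina3n (4.45) with an NF-kB pattern and Isg15, an interferon-induced ubiquitin-like protein (2.22), with 3 overlapping matches of the interferon pattern. They lie at Serpina3n chr12:104406508-104406707, plus strand, and Isg15 chr4:156200819-156201018, minus strand.
Serpina3n: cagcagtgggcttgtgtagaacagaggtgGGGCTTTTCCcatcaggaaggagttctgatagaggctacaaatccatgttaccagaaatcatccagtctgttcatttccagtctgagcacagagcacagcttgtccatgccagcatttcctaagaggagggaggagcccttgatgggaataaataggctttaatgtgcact
Isg15: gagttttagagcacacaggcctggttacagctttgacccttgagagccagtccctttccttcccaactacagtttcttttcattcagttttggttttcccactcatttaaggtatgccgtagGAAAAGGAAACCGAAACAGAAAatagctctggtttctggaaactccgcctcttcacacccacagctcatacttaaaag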

How the data were processed

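Polyadenylated RNA of whole retinae was sequenced, and the deposited files hold raw counts per gene, made by the authors on build mm9 (per the submitters' processing notes). The aligner, the counter, its strand setting and the annotation are not given in the sources used here. All 21769 listed genes of 9 libraries were read, and 4230 had no count in any. Genes passing edgeR's expression filter (minimum count 10, minimum total 15) were tested with edgeR 4.0.16 under R 4.3.3 (TMM scaling, a mean for each of 3 groups, quasi-likelihood test). The Benjamini-Hochberg adjustment covered 14300 genes, with a threshold of 0.05, and every adjusted p printed comes from this test unless another is named. SD is over 3 libraries. On counts simulated for this comparison (14300 genes, 50 of them changed by each fold), 2% of the genes changed 1.5-fold, 38% of those changed 2-fold, 78% at 4-fold and 98% at 8-fold were recovered. Far fewer genes changed there than the 28.4% called in the data, which makes the adjusted threshold stricter. The percentages therefore do not give the sensitivity of the test on the data. Alternatives used DESeq2 1.42.0, limma 3.58.1, other scalings, filters and sets of libraries.

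The comparison, the 41 gene lists and 26 name-based families were chosen with earlier results of these data known. Of each list, up to 3 genes with the lowest adjusted p among those that passed were named, or the most abundant gene where none passed. To these came, in each direction, 12 genes of extreme change, 8 with the largest change in share and 5 with counts in a single genotype. A further 5 were abundant unchanged genes. The genes chosen for naming therefore include some that had no call to lose. Genes outside this rule are said to be chosen after their values were seen. Some genes that the rule chose are not reported here.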

Additional observations from a re-analysis of the deposited data

How the results depend on the processing

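Against 2067 genes higher and 1988 lower, scaling by library totals gave 3603 and 1079. With the libraries with lens RNA left out (chosen after seeing the data, with 1 wild type library assumed to vary like the others), 86 and 457 passed. With each library left out in turn the counts ran from 1269 to 1809 higher and from 1186 to 1711 lower. Of genes at least 2-fold changed, 899 were higher and 983 lower, which became 2114 higher with library totals and 86 higher and 457 lower without lens RNA. With upper-quartile scaling 60.7% of calls were higher, with library totals 77.0%, with the trend of transcript length removed (also chosen after seeing the data) 45.2%, and in the result as reported 51.0%. DESeq2 gave 2604 and 2280, limma-voom 2273 and 2014, the 6 libraries alone 2661 and 2441, and a test against a fold of 1.2 gave 1414 and 1438.

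The labels number the replicates 1 to 3 in each group. Deviations of same-numbered libraries correlated at 0.06, 0.10 and -0.32, so the numbers were not taken as pairs. With the replicate block on 6 libraries, 2082 genes were higher and 1742 lower. Counting limits the genes below 1 CPM, of which 444 were tested, with 33 higher and 12 lower.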

Other observations

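Between 24.0% and 32.8% of tested genes were called on each autosome and the X chromosome. Around Pde6b on chromosome 5, 24 genes of 177 tested within 10 Mb of its start were higher and 23 lower, together 26.6%, against 28.4% of all genes. Within 1 Mb, 5 of 22 were higher and 3 lower, together 36.4%.

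Long noncoding RNA genes leaned the other way from protein-coding genes. Of 241 tested, 12 were higher (4.98%) and 43 lower (17.8%), while of 12487 protein-coding genes 15.2% were higher and 13.7% lower. The counting's strand setting is not known, so a noncoding gene that overlaps another gene cannot be told apart from it.

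Solute carrier genes, the transporters of small molecules, were higher in 53 and lower in 36 of 270 cases (19.6% and 13.3%, against 14.5% and 13.9% of all genes). The higher count was 33 without rd10 3 or wild type 3, and library totals gave 91 higher and 28 lower. Glutathione transferase and aldehyde dehydrogenase genes, which detoxify reactive compounds, were higher in 6 of 37 cases (16.2%, near the 14.5% of all genes), or 13 with library totals and 3 without rd10 1, rd10 2 or wild type 1. Of 1097 olfactory receptor genes listed, 1 had enough counts to be tested.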
